A study of Mus musculus with 16 samples.

Results

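Aspg, Sorcs2, Adprhl1, Cyp2f2, Fer1l6, Hpcal4, Atp4b and Ttc25 are 8 genes of mouse inguinal white fat selected on their measured fall on a high-fat diet (HFD) against chow. They are 8 of 55487 genes in the deposited count table and all 8 were among the 16549 genes that passed the filter on low counts. Members were found by gene symbol in the authors' comparison tables and joined by Ensembl identifier to the counts. Ttc25 stands in those tables under its newer symbol Odad4. The diet difference itself chose these genes, so their falls on HFD are given below as a description and not as a test. Genotype, variation between animals of 1 group, family members, neighbouring genes and promoter sequence played no part in the choice.

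The study measured polyadenylated RNA of inguinal fat, a subcutaneous white depot, in male mice aged 6 to 7 months. Whole-body Kmo knockout mice (KO) were compared with wild-type mice (WT), and each genotype was fed chow or HFD, which gives 4 groups of 4 animals. Kmo encodes kynurenine 3-monooxygenase, an enzyme of tryptophan breakdown, and the whole-body knockout does not limit its loss to fat cells. The composition and length of the HFD are not given in the sources used here.

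Each of the 16 libraries held between 13824404 and 16909361 counted read pairs, and levels are given as CPM, the count scaled to library size, where 1 CPM stood for 14.1 to 16.5 read pairs. Kmo itself had 40 to 298 counts in the WT libraries and 1 to 8 in the KO libraries. All 10 white adipocyte markers were detected, with a summed level of 23616 to 38977 CPM. Libraries differed within groups in genes of other cells: the summed B cell markers ran from 9.76 to 931 CPM on chow and from 6.30 to 758 CPM on HFD, and the summed skeletal muscle markers from 127 to 6084 CPM over all libraries. KO chow replicate 4 stood apart, with the lowest level of 6 of the 8 genes among the 8 chow libraries. According to the column names, 12 libraries were merged (the merged libraries below), and the names do not say what was merged. WT chow replicate 2, WT HFD replicates 3 and 4 and KO HFD replicate 1 each name a single lane, and these lanes are not all the same.

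The genes belong to unrelated families, and most are better known from other organs than from fat. Aspg encodes an asparaginase, which splits asparagine into aspartate and ammonia, and Cyp2f2 encodes a cytochrome P450 known from club cells of the airway, where it activates naphthalene. Sorcs2 encodes a sorting receptor with a VPS10 domain that takes part in neurotrophin signalling, and Hpcal4 a calcium sensor of the hippocalcin family found in neurons. Adprhl1 is a relative of the ADP-ribosylhydrolases known from heart muscle. Fer1l6 is a ferlin, a family of membrane proteins with calcium-binding domains that act in membrane fusion and repair. Atp4b is the beta subunit of the proton pump that acidifies the stomach, and Ttc25 a part of the complex that docks outer dynein arms in motile cilia.

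In the GRCm38 build, with the Ensembl annotation of the count table, Aspg (ENSMUSG00000037686) lies on the plus strand of chromosome 12 from 112106679 to 112127559. Sorcs2 (ENSMUSG00000029093) lies on the minus strand of chromosome 5 from 36017180 to 36398139. Cyp2f2 (ENSMUSG00000052974) lies on the plus strand of chromosome 7 from 27119909 to 27133660. Adprhl1 (ENSMUSG00000031448, 13221663 to 13254162) and Atp4b (ENSMUSG00000031449, 13386205 to 13396825) are both on the minus strand of chromosome 8. Fer1l6 (ENSMUSG00000037106) lies on the plus strand of chromosome 15 from 58510048 to 58665092. Hpcal4 (ENSMUSG00000046093) lies on the plus strand of chromosome 4 from 123183227 to 123194701, and Ttc25 (ENSMUSG00000006784) on the plus strand of chromosome 11 from 100545607 to 100572568.

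Promoters are shown as a description only. The shared fall on HFD was fixed by the choice of the genes, and shared control of them was not tested. RefSeq (GRCm38.p6) gave a promoter for 4 of the 8 genes, Aspg, Adprhl1, Cyp2f2 and Hpcal4; Sorcs2, Fer1l6, Atp4b and Ttc25 had no entry. In each, the 250 bases before the RefSeq start were searched on both strands for 3 motifs, namely CACGTG (an E-box, which reads the same on both strands), CCAAT and TATAAA. The sequences below run 5′ to 3′ on the gene's strand, stop before the start of the gene in the count table, and carry motif matches in capitals.
Aspg, chr12:112106433-112106678, plus strand: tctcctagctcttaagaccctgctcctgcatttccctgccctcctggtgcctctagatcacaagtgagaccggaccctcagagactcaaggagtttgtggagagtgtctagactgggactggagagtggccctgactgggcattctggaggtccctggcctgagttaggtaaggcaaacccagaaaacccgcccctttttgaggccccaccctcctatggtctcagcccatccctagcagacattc
Adprhl1, chr8:13254163-13254412, minus strand: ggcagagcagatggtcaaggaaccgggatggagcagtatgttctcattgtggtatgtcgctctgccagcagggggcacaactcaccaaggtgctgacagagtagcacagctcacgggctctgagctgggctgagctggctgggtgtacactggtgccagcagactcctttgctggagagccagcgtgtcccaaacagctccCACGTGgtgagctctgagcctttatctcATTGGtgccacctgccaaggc
Cyp2f2, chr7:27119705-27119908, plus strand: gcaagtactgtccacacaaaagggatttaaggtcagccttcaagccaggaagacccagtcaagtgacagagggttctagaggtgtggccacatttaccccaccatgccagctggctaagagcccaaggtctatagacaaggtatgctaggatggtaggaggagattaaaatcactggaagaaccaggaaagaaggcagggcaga

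The Adprhl1 promoter held CACGTG at 49 to 44 bases before the start and CCAAT on the opposite strand (printed as ATTGG) at 21 to 17 bases before it. The windows of Aspg and Cyp2f2 held none of the 3 motifs. The Hpcal4 window held CCAAT at 78 to 74 bases before the RefSeq start, lies wholly inside the gene of the count table and is not printed. No match overlapped another. Over all 32851 promoters of the RefSeq table, windows of the same length held CACGTG in 6.02%, CCAAT in 33.8% and TATAAA in 12.4%. These matches describe letters only, and no shared motif was found in the 4 windows apart from CCAAT in Adprhl1 and Hpcal4.

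All 8 genes were low on HFD in both genotypes, and 7 of them had every HFD library below every chow library. This held for 2.53% of all genes tested, and the diet difference chose the genes, so it is no support for them. Hpcal4 was the exception, because 1 WT chow library held no read of it. The edgeR quasi-likelihood test called 7 of the 8 lower in WT, against 4.92% of all genes tested called lower, and 8 in KO, against 5.23%. Over both genotypes it called 8 lower, against 16% of all genes tested. Calls mean a Benjamini-Hochberg adjusted p below 0.05 over all genes tested. In bulk tissue, fewer cells of a type that carry a transcript and less transcript per cell cannot be told apart.

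**Figure D1:**
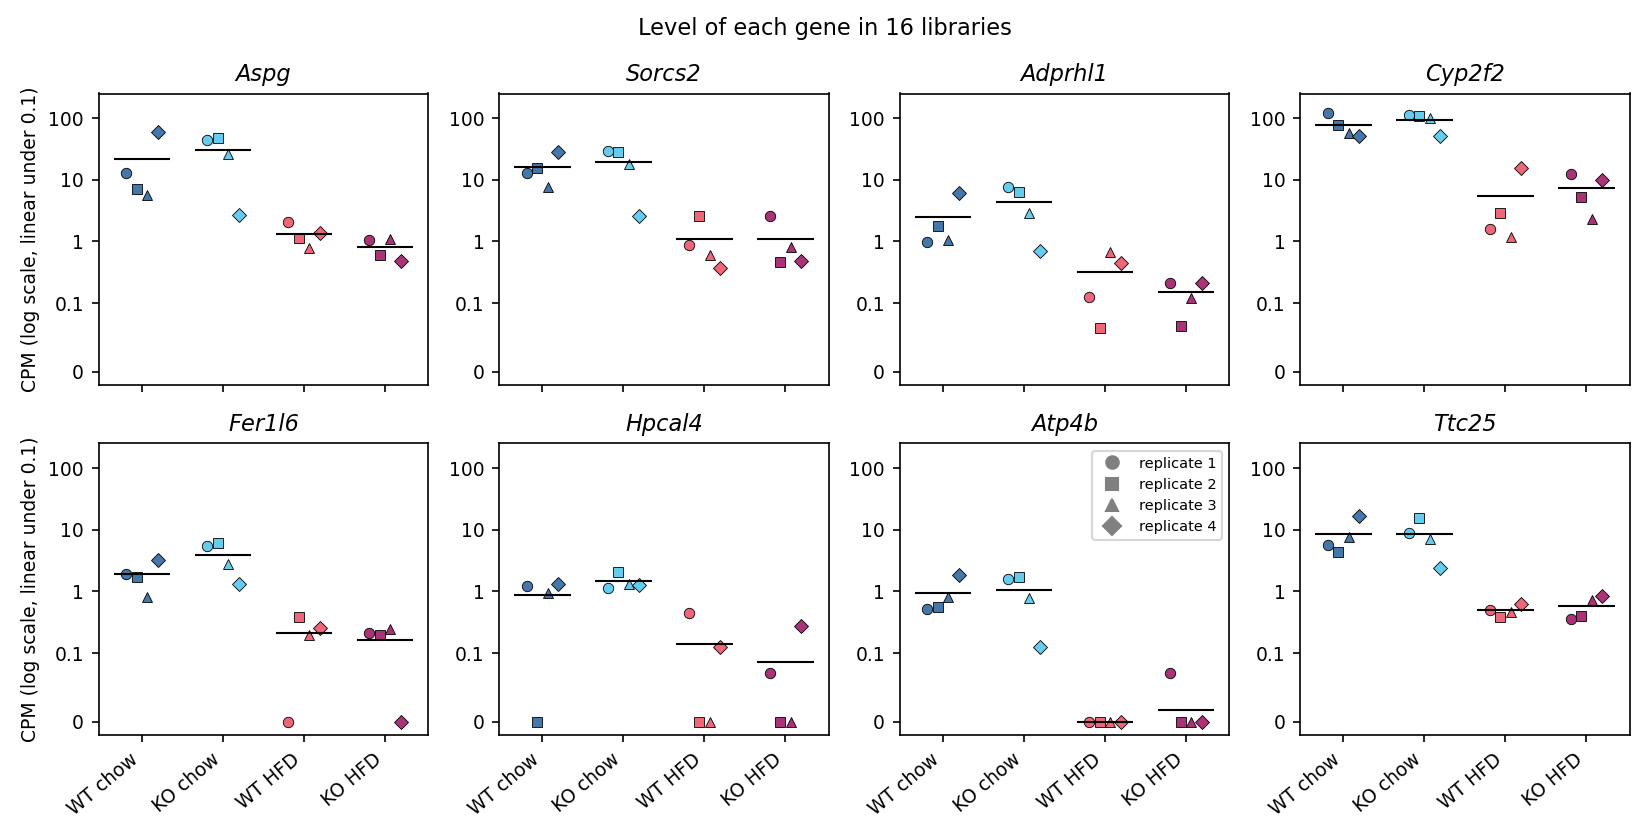
Level of each gene in CPM (vertical axis, log scale above 0.1 and linear below it) in the 4 groups of 4 libraries; each symbol is a library and the line is the group mean. Replicate numbers are names, and the labels do not say whether they pair animals. For 7 genes all HFD symbols lie below all chow symbols, and Hpcal4 has a WT chow library at 0.

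Aspg, the asparaginase, had 195, 113, 86 and 940 counts in WT chow replicates 1 to 4 and 708, 694, 437 and 43 in KO chow. It had 32, 18, 12 and 22 counts in WT HFD and 15, 9, 18 and 7 in KO HFD. Within chow the animals thus differed widely, with WT replicate 4 and KO replicates 1 to 3 high and KO replicate 4 low, whereas the HFD libraries lay close together. The mean level on chow was 21.4 ± 25.9 CPM for WT and 30.2 ± 20.5 for KO, against 1.34 ± 0.521 and 0.814 ± 0.315 on HFD (SD, n = 4 each). The highest WT chow library was 10.5 times the lowest, and the highest KO chow library was 17.5 times the lowest. The fitted log2 fold change of HFD against chow was −3.98 (SE 0.912) in WT and −5.19 (SE 0.976) in KO. The WT call was lost in 6 of 28 alternative fits. Among them were fits without WT HFD replicate 3, of the merged libraries only, with the replicate number as a block and with limma-voom. The remaining ones had the T and B cell or the thermogenic adipocyte score as a covariate.

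Cyp2f2, the airway cytochrome P450, was the most abundant of the 8 genes. It had 1837, 1254, 863 and 816 counts in WT chow and 1812, 1570, 1654 and 819 in KO chow. On HFD it had 25, 46, 18 and 250 counts in WT and 172, 79, 37 and 142 in KO. Here the spread lay on HFD and not on chow: on chow the highest library was 2.30 times the lowest for WT and 2.23 times for KO, but on HFD 13.2 times and 5.36 times. Mean levels on chow were 76.8 ± 30.7 CPM for WT and 92.9 ± 28.4 for KO, and on HFD 5.37 ± 6.96 and 7.41 ± 4.47 (SD, n = 4 each). The log2 fold change was −3.83 (SE 0.749) in WT and −3.65 (SE 0.739) in KO.

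Sorcs2, the sorting receptor, had 199, 252, 116 and 449 counts in WT chow and 464, 410, 296 and 42 in KO chow. It had 14, 40, 9 and 6 counts in WT HFD and 37, 7, 13 and 7 in KO HFD. KO chow replicate 4 was again low, and at 2.63 CPM it stood only just above the highest KO HFD library at 2.62 CPM. The 2 HFD libraries with most Sorcs2, WT replicate 2 and KO replicate 1, were also those with the highest summed B cell markers, 656 and 758 CPM, against 6.30 to 37.6 CPM in the other HFD libraries. Over the 8 chow libraries Sorcs2 had r = 0.74 with the mean log2 CPM of the B cell markers, both as deviations from group means. This relation did not pass the adjustment (adjusted p = 0.226, exact permutation). Without KO chow replicate 4 and WT chow replicate 3, r was 0.03. The levels did not run together in every chow animal, since KO chow replicate 2 had 27.8 CPM of Sorcs2 with 41.7 CPM of B cell markers. Over both genotypes the 10 B cell markers had a median log2 fold change of −1.02, and 0 were called. The part of B cells in these levels was not tested. Log2 fold changes were −3.87 (SE 0.816) in WT and −4.15 (SE 0.826) in KO, and the WT call was lost among the merged libraries.

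Ttc25, the cilia gene, had 87, 69, 114 and 258 counts in WT chow and 143, 231, 115 and 38 in KO chow. It had 8, 6, 7 and 10 counts in WT HFD and 5, 6, 12 and 12 in KO HFD. All 8 HFD libraries were low and alike, between 0.354 and 0.837 CPM, and the lowest chow library stood at 2.38 CPM. Log2 fold changes were −4.07 in WT and −3.84 in KO, with the smallest standard errors of the 8 genes (0.570 and 0.562).

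Adprhl1 had 15, 29, 16 and 95 counts in WT chow and 122, 92, 47 and 11 in KO chow. It had 2, 1, 10 and 7 counts in WT HFD and 3, 1, 2 and 3 in KO HFD. In WT the lowest chow library (0.977 CPM) and the highest HFD library (0.665 CPM) were close, and 1 chow animal carried most of the counts. The WT call was lost in 12 of 28 alternative fits, among them those without WT chow replicate 4 and without any 1 of the 4 WT HFD libraries. Log2 fold changes were −2.91 (SE 0.820) in WT and −4.77 (SE 0.910) in KO.

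Fer1l6, the ferlin, had 29, 28, 12 and 51 counts in WT chow and 87, 91, 46 and 21 in KO chow. It had 0, 6, 3 and 4 counts in WT HFD and 3, 3, 4 and 0 in KO HFD. Chow and HFD libraries did not overlap in either genotype, but an HFD library held 6 counts at most, so differences among HFD libraries were not detectable at this depth. From summed counts scaled to library size, chow was 9.25 times HFD in WT (95% exact interval 5.21 to 17.9) and 23.2 times in KO (12.4 to 48.9); such intervals cover counting error only. The WT call was lost without WT HFD replicate 3, among the merged libraries and with the thermogenic score as a covariate.

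Atp4b, the proton pump subunit, had 8, 9, 12 and 29 counts in WT chow and 25, 25, 13 and 2 in KO chow. On HFD it had no count in any WT library and 1 count in KO replicate 1, with 0 in the other 3 KO libraries. It was therefore present in all 8 chow libraries at 0.125 to 1.85 CPM and nearly absent from the HFD libraries. With 3 counts over the group as the limit that a count of 0 allows, Atp4b was at least 19.4-fold lower in WT HFD than in WT chow. With the counting error of the chow libraries included, the exact 95% lower limit of that ratio was 15.3. In KO the ratio of chow to HFD was 61.5 with a 95% exact counting interval of 10.6 to 2464, and the lowest KO chow library (2 counts) cannot be told from the highest KO HFD library (1 count).

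Hpcal4, the neuronal calcium sensor, had 19, 0, 14 and 21 counts in WT chow and 18, 31, 22 and 20 in KO chow. It had 7, 0, 0 and 2 counts in WT HFD and 1, 0, 0 and 4 in KO HFD. The KO chow libraries were alike and all above the KO HFD libraries, while WT chow replicate 2, with 0 counts, lay at or below every WT HFD library. This library came from a single lane. The log2 fold change in WT was −2.54 (SE 1.04), which the edgeR quasi-likelihood test did not call (adjusted p = 0.116), and in KO it was −3.98 (SE 1.11, adjusted p = 0.0310). The KO call was lost in 7 of 28 alternative fits, among them those without KO chow replicate 2 or 3 and without KO HFD replicate 1, 2 or 3.

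Read together over both genotypes, the fitted log2 fold changes ran from −3.26 (SE 0.759) for Hpcal4 to −6.13 (SE 0.834) for Atp4b. The value for Atp4b rests on a group with no counts, depends on the fit's prior and is no bound. Counted from the lowest of 16549 fold changes, Atp4b ranked 3, Aspg 8, Sorcs2 10, Ttc25 12, Adprhl1 16, Fer1l6 18, Cyp2f2 19 and Hpcal4 28.

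**Figure D2:**
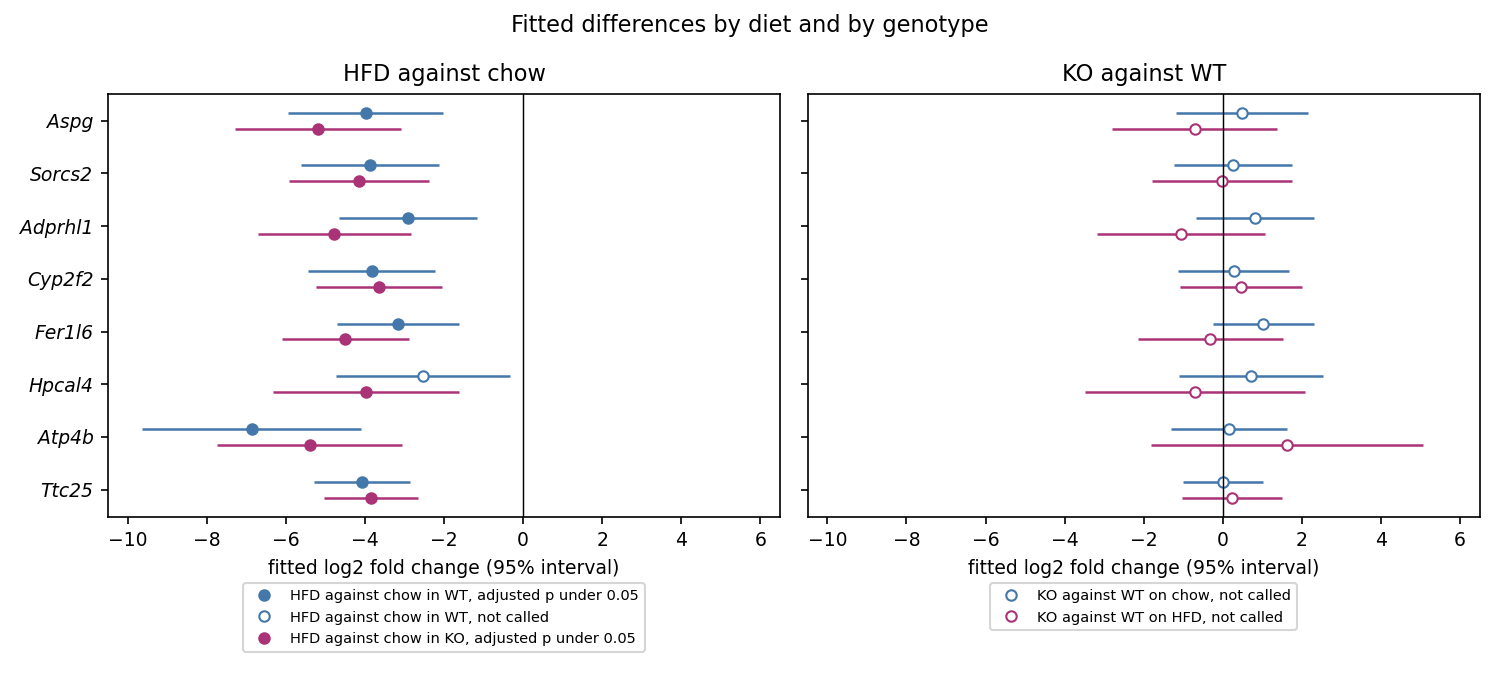
Fitted log2 fold change of each gene (points) with its 95% interval (lines), for HFD against chow in WT and KO (left) and for KO against WT on chow and on HFD (right); filled points had an adjusted p below 0.05. Diet values lie between −6.86 and −2.54, with Hpcal4 in WT open, and all genotype points are open with intervals that include 0.

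Levels were compared between genes only per exon length, as fragments per kilobase of exon scaled to library size (FPKM). On chow Cyp2f2 led with 41.9 ± 14.2 FPKM, followed by Aspg with 7.32 ± 6.29, Sorcs2 with 2.02 ± 1.14 and Ttc25 with 1.38 ± 0.83 (SD, n = 8). Below 1 FPKM came Atp4b (0.655 ± 0.420), Adprhl1 (0.584 ± 0.479), Fer1l6 (0.364 ± 0.243) and Hpcal4 (0.218 ± 0.109). Cyp2f2 exceeded Aspg, Aspg exceeded Sorcs2 and Ttc25 exceeded Atp4b in all 8 chow libraries. The other neighbours in this order (Sorcs2 and Ttc25, Atp4b and Adprhl1, Adprhl1 and Fer1l6, Fer1l6 and Hpcal4) changed places in 2 of 8 libraries and did not differ beyond their spread. On HFD Cyp2f2 (3.15 ± 2.73 FPKM) and Aspg (0.306 ± 0.139) kept the top places in all 8 libraries, and Atp4b fell to the last place by its mean (0.00587 ± 0.0166). Hpcal4, next above it, exceeded Atp4b in only 3 of 8 HFD libraries. Atp4b was at 0 in 7 of the 8, so this last place rests on few counts.

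KO and WT were compared for the 8 genes on each diet, which asks whether loss of Kmo altered them; the choice of genes did not use this contrast. No gene of the 8 was called by edgeR on chow or on HFD, against 0.00604% of all genes tested on each diet, which is Kmo alone. None was called over both diets (0.00604% of all genes tested) or for the interaction of genotype and diet (0% of all genes tested). At an unadjusted p below 0.05 the count over all libraries was also 0 of 8 in each of these 4 comparisons with edgeR, DESeq2 and limma-voom. Single libraries moved this unadjusted edgeR count: without WT chow replicate 4 it was 3 of 8 on chow and 2 of 8 for the interaction, and without KO chow replicate 4 it was 1 of 8 on chow. Without WT HFD replicate 4 it was 1 of 8 on HFD, over both diets and for the interaction. With all libraries it was 1 of 8 on chow under the T and B cell covariate and under the thermogenic covariate. The share of all genes below this unadjusted p was not counted, so these counts are values only. None of the 8 passed the adjustment in these fits. KO and WT libraries overlapped for all 8 genes on both diets, where 0.556% of all genes tested on chow and 1.42% on HFD did not overlap. These results do not show that the genotypes are alike, because the intervals are wide.

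On chow the log2 fold change of KO against WT was above 0 for 7 of the 8 genes, where the median of all genes tested was −0.00477. Most of the 8 varied together across these animals (below), so their signs are not separate results. The log2 fold change was largest for Fer1l6 at 1.03 (95% interval −0.241 to 2.30, unadjusted p = 0.105, edgeR), with 1.92 ± 1.01 CPM in WT and 3.93 ± 2.28 in KO (SD, n = 4 each). For Adprhl1 it was 0.81 (−0.685 to 2.31) and for Ttc25 it was −0.00175 (−1.01 to 1.01). On HFD the values ran from −1.05 for Adprhl1 to 1.62 for Atp4b, the latter set by a single count. The narrowest interval there belonged to Ttc25, 0.23 with −1.03 to 1.49, and so even this gene could differ more than 2-fold in either direction.
The interaction, the diet difference in KO minus that in WT, ran from −1.86 for Adprhl1 (95% interval −4.47 to 0.742, unadjusted p = 0.148, edgeR) to 1.47 for Atp4b. The authors' deposited table of KO against WT on chow lists all 8 genes and calls 0 of them, with the lowest unadjusted p, 0.0559, for Fer1l6. The authors' deposited table for HFD lists 7 of them, without Atp4b, and calls 0.

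Animals of 1 chow group differed from each other, and for 6 of the genes they differed in the same way. Levels were expressed as log2 CPM minus the mean of the group, over the 8 chow libraries, and all 28 pairs of genes were correlated with an exact two-sided permutation test within groups (576 permutations). Of the 28 pairs, 12 had a Benjamini-Hochberg adjusted p below 0.05 by Pearson's r, each with adjusted p = 0.0446, and 3 did by Spearman's rho. All 12 pairs lay among Aspg, Sorcs2, Adprhl1, Fer1l6, Atp4b and Ttc25, a set seen in these data and therefore given as a description. Their 15 pairs had r from 0.78 to 0.96 and rho from 0.76 to 0.93, with adjusted p of up to 0.0907 (exact permutation). The pairs were not independent, because all share the same 8 libraries. The share of pairs of other genes that would pass was not counted, so whether this likeness is particular to these genes was not tested.

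The closest pair was Atp4b with Ttc25, which lie on different chromosomes (r = 0.96, rho = 0.93, exact permutation p = 0.00347 for each). Adprhl1 with Atp4b, the pair on chromosome 8, had r = 0.95 and rho = 0.90 (exact permutation p = 0.0104 and 0.0139). Aspg with Fer1l6 had r = 0.92 and rho = 0.93, both with the smallest p that the exact permutation can give, 0.00174. The 7 pairs with Cyp2f2 had r from −0.03 to 0.57, and the 7 pairs with Hpcal4 had r from −0.03 to 0.49, and none of these pairs passed the adjustment (lowest adjusted p = 0.283, exact permutation). That the 2 genes differ from the other 6 was not tested.

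Leaving out the 2 libraries farthest from the median of the first gene gave r from 0.65 to 0.98 for the 15 pairs. Without both replicates 4, the libraries at the extremes, r fell to between −0.10 and 0.94, so for some pairs the relation rests on these 2 animals. The pair with the lowest value there was Sorcs2 with Ttc25, and Sorcs2 with Fer1l6 kept 0.94. Among the merged chow libraries, r was 0.85 to 0.98. Groups of 4 were too small for a correlation of their own.

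**Figure D3:**
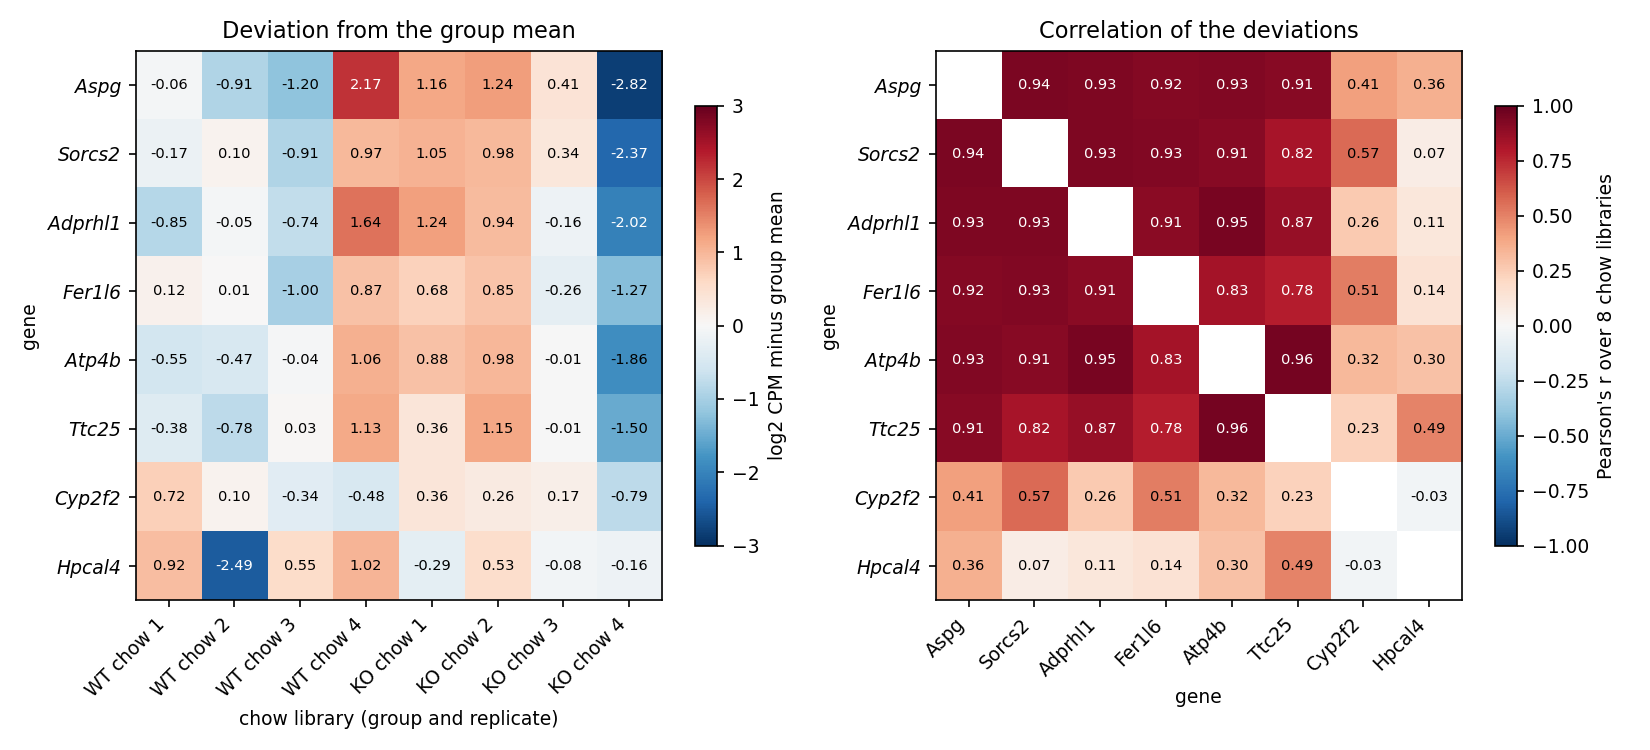
Left, log2 CPM of each gene (rows) minus its group mean in the 8 chow libraries (columns); right, Pearson's r of these values for each pair of genes over the 8 libraries. KO chow replicate 4 is blue and WT chow replicate 4 red for the upper 6 genes, whose pairs have r of 0.78 to 0.96, while pairs with Cyp2f2 or Hpcal4 stay at 0.57 or below.

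Scores of 15 lists of marker or pathway genes, each the mean log2 CPM of the list, were set beside the 8 genes over the same chow libraries, which makes 120 relations. No relation passed the adjustment (lowest adjusted p = 0.125, exact permutation), so the following are values only. For the 6 genes above, r with the thermogenic adipocyte score ran from 0.82 to 0.96, and with the de novo lipogenesis score from 0.67 to 0.93. With the score of lipid-associated macrophages r ran from −0.97 to −0.80. Cyp2f2 had r = 0.20 with the thermogenic score and Hpcal4 had r = 0.48. The skeletal muscle score had r between −0.62 and −0.45 with the 6 genes, Adprhl1 included. For the B cell score r ran from 0.35 to 0.74, highest for Sorcs2, and without both replicates 4 from −0.92 to 0.42. For the T cell score it ran from 0.27 to 0.60, and without both replicates 4 from −0.98 to 0.21. For the endothelium score r ran from −0.84 to −0.55, and without both replicates 4 from −0.80 to 0.64. For the club and ciliated epithelium score it ran from −0.82 to −0.53, and without both replicates 4 from −0.53 to 0.48. Leaving out both replicates 4 took the thermogenic values to between 0.22 and 0.84, the lipogenesis values to between −0.23 and 0.96 and the macrophage values to between −0.84 and 0.30, so that the last 2 changed sign for some genes.

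Thermogenic and lipogenic genes also differed between diets, beside the 8 genes. The 10 thermogenic markers, all detected, summed on chow to 317 to 840 CPM for WT and 342 to 943 for KO, against 177 to 239 and 149 to 255 on HFD. Over both genotypes 6 of the 10 were called lower and 0 higher, with a median log2 fold change of −1.55 against −0.04 for all genes tested; Ucp1, the uncoupling protein of brown and beige fat, had −6.13. Of 21 lipogenesis genes 16 were called lower and 1 higher, with a median of −0.76. With the thermogenic score as a covariate, edgeR called 1 of the 8 genes lower over both genotypes (Ttc25, log2 fold change −2.08, adjusted p = 0.0286), and 131 genes in all against 5471 without it. Under this covariate the log2 fold change of Cyp2f2 was −4.00, against −3.74 without it. For all the other genes it moved toward 0. It went from −4.01 to −3.09 for Sorcs2, from −3.26 to −2.79 for Hpcal4 and from −6.13 to −4.11 for Atp4b. For Aspg it went from −4.59 to −1.75, for Adprhl1 from −3.84 to −1.44, for Fer1l6 from −3.83 to −2.28 and for Ttc25 from −3.96 to −2.08. The score itself differed between diets, with means of 4.11 and 4.67 on chow against 2.89 and 2.96 on HFD. Its lowest chow library stood at 3.61 and its highest HFD library at 3.32, so this fit cannot tell the score from the diet. The part of the score in the falls was not tested.

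Defining markers of the organs in which these genes are known were mostly at or near 0. For the gastric parietal cell, 4 of 5 listed markers were in the table and none passed the filter; their sum on chow was 0.192 to 1.04 CPM for WT and 0.0678 to 0.881 for KO, and on HFD 0.191 to 0.636 and 0.0667 to 0.566. Atp4a, the catalytic partner of Atp4b, had 13 counts over 8 chow and 3 over 8 HFD libraries. For club and ciliated cells, the club cell secretoglobins Scgb1a1 and Scgb3a2 had 2 and 0 counts on chow, and the cilia regulator Foxj1 had 10. Ccdc39, a cilia gene, was the most abundant of these 8 markers with 609 counts on chow. Their sum on chow was 4.28 to 9.51 CPM for WT and 4.84 to 9.88 for KO, and on HFD 4.72 to 10.2 and 5.31 to 9.68. Of 6 hepatocyte markers, Ttr, Cyp3a11 and Cps1 had 0 counts on chow; Alb led the list with 52.1 ± 15.95 CPM on chow and 25.5 ± 5.87 on HFD (SD, n = 8). Alb was 1 of 2 hepatocyte markers tested and was called lower over both genotypes (log2 fold change −1.02, SE 0.180). The part of such cells in the levels of Cyp2f2 was not tested.

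Skeletal muscle was present in uneven amounts, with 17 markers summing on chow to 175 to 6084 CPM for WT and 127 to 1120 for KO, and on HFD to 188 to 2720 and 145 to 621. None of the 16 tested was called between diets over both genotypes by edgeR. Their median log2 fold change was −0.85, against −0.04 for all genes tested. With so wide a spread within groups, the lack of calls does not show that muscle content was alike between diets. Schwann cell and neuron markers, of interest for Hpcal4 and Sorcs2, summed on chow to 274 to 425 CPM for WT and 279 to 344 for KO, and on HFD to 282 to 324 and 283 to 341. Of 9 tested, 2 were called lower and 0 higher; the neuronal genes Nefl and Snap25 had 6 and 15 counts over the 8 chow libraries. Any part of these cells in the levels of Hpcal4 was not tested.

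Relatives of the 8 genes were read from lists of their families and partners, to see whether whole families moved with diet. Over both genotypes, 16% of all genes tested were called lower and 17.1% higher. Most family members were not called.

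Of 6 genes of asparagine and glutamine hydrolysis and asparagine synthesis, 2 were called higher and 0 lower, with a median log2 fold change of 0.18. Asrgl1, an asparaginase of another family, rose by 0.56 (SE 0.0946), from 26.7 ± 4.53 to 39.2 ± 3.82 CPM (SD, n = 8), and Aga, a lysosomal enzyme that cuts asparagine from sugar chains, rose by 0.28. Asns, which makes asparagine, had 0.22 (adjusted p = 0.229, edgeR) and was not called.

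Of 10 tested VPS10 receptors and neurotrophin partners, 4 were called lower and 2 higher, with a median of −0.62. Ntrk3, the receptor of neurotrophin 3, fell by 2.45 (SE 0.307), from 69.6 ± 32.8 to 12.8 ± 4.54 CPM. The sorting receptor Sorl1 fell by 1.07 and the ligand Ntf3 fell by 0.76. Bdnf, another neurotrophin, rose by 1.59, from 1.03 ± 0.789 to 3.12 ± 0.695 CPM.

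The 6 ADP-ribose hydrolases split, with 2 called lower (Macrod1 at −0.55 and Oard1 at −0.44) and 1 higher (Macrod2 at 0.45), while Adprh, the enzyme most like Adprhl1 by name, had 0.16 and was not called. Of 10 tested genes of cytochrome P450 family 2, 3 were called lower and 1 higher. Cyp2e1, the ethanol-oxidising enzyme, fell by 1.16 from 1165 ± 286 to 526 ± 219 CPM, Cyp2d22 fell by 0.70 and Cyp2u1 fell by 0.48, while Cyp2ab1 rose by 0.88. These falls were all smaller than that of Cyp2f2 at −3.74.

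Of 3 tested ferlins, Myof, which acts in membrane repair, rose by 0.81, and Dysf and Fer1l5 were not called. Of 7 tested calcium sensors, Ncs1 rose by 1.26 and Ncald by 0.54, and none was called lower, with a median log2 fold change of −0.05. Of 7 tested pump subunits, 1 was called lower and 1 higher. The latter, Atp1a4, a catalytic subunit of the sodium pump, rose by 1.98. Atp1b3, a beta subunit like Atp4b, had −0.00636 (SE 0.0686) and was not called.

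Of 4 tested genes of the outer dynein arm, 2 were called lower and 0 higher. Ccdc151, which like Ttc25 belongs to the docking complex, fell by 2.99 (SE 0.489), from 1.18 ± 0.600 to 0.140 ± 0.0970 CPM, with 148 counts over 8 chow libraries and 17 over 8 HFD libraries. Dnah17, a dynein heavy chain, fell by 0.86. Ccdc114, another docking protein, had −0.28 and was not called, and 9 of the 13 genes of this list were too low to be tested.

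**Figure D4:**
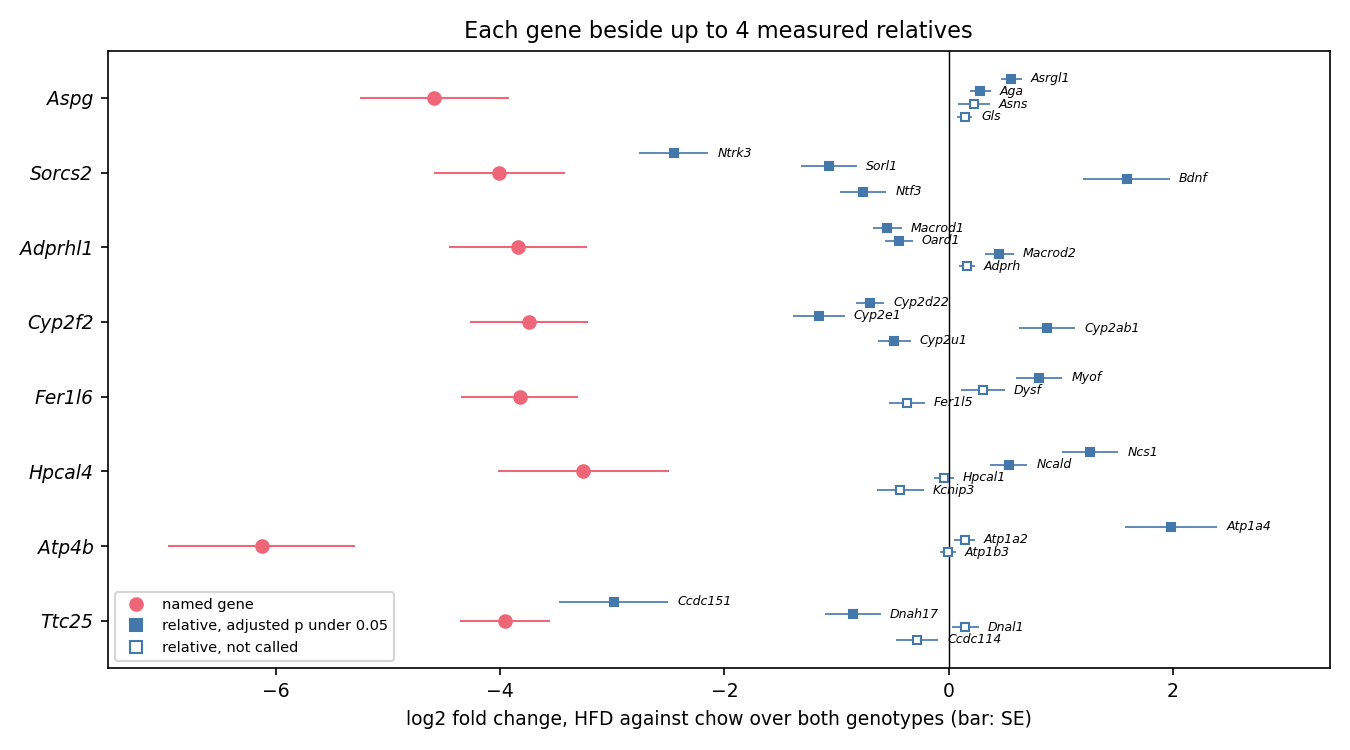
Log2 fold change of HFD against chow over both genotypes, with its standard error, for each of the 8 genes (circles) and up to 4 tested relatives (squares, filled where the adjusted p was below 0.05). Each of the 8 lies left of all its relatives, which was fixed by the choice of the genes; Ccdc151 at −2.99 and Ntrk3 at −2.45 come closest, and Bdnf, Ncs1 and Atp1a4 lie right of 1.

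Neighbouring genes on the chromosome were mostly not called. Adprhl1 and Atp4b lie 132 kb apart on chromosome 8, and 13 genes were tested between 100 kb before the first and 100 kb after the second. Only these 2 were called lower over both genotypes; Grtp1 was called higher at 0.47 and Tmco3 at 0.31. Tfdp1, which ends 7756 bases before Atp4b, had 0.17 (95% interval 0.00357 to 0.329) and Dcun1d2, 1800 bases beyond Adprhl1, had 0.17 (−0.0331 to 0.379), and neither was called.

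**Figure D5:**
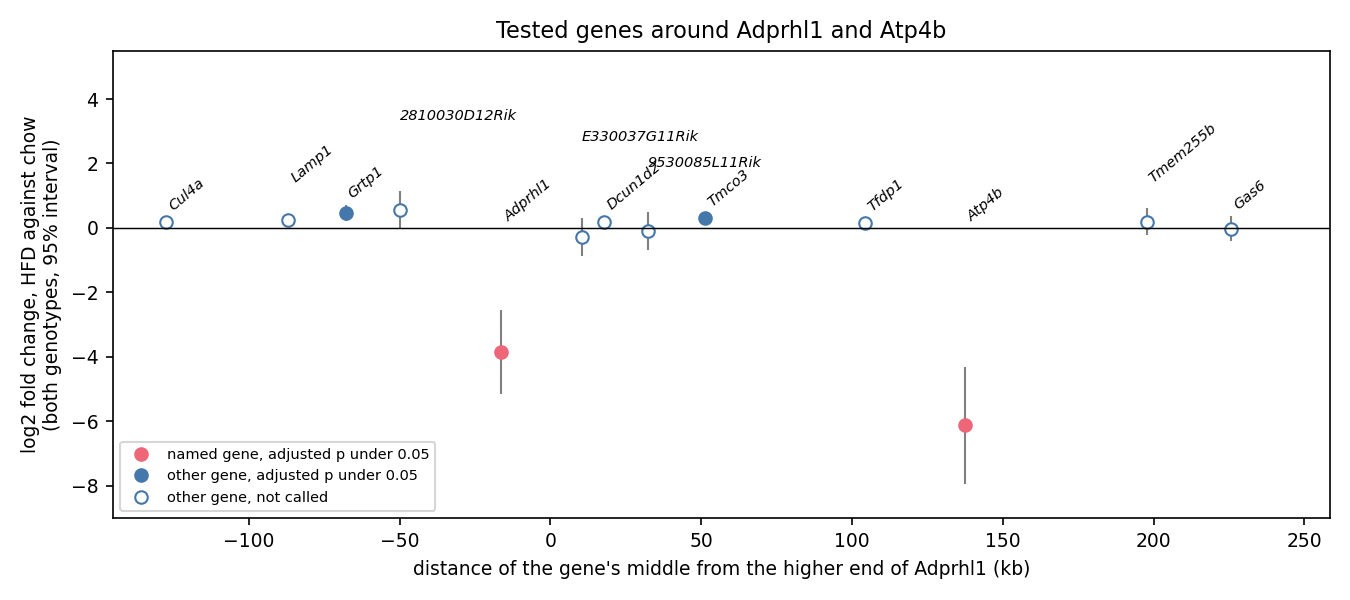
Log2 fold change of HFD against chow over both genotypes, with its 95% interval, for the 13 tested genes around Adprhl1 and Atp4b, placed by the distance of each gene's middle from the higher end of Adprhl1 in kb. Adprhl1 at −3.84 and Atp4b at −6.13 stand below 11 genes that lie between −0.29 and 0.56.

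Of the other neighbours, Acly, the ATP citrate lyase that supplies fatty acid synthesis with acetyl-CoA, ends 17606 bases before Ttc25 on the opposite strand and fell by 2.38 over both genotypes (adjusted p = 7.60e-05, edgeR). Cnp, 2335 bases after Ttc25, had −0.25 and was not called. Gm15883 overlaps Cyp2f2 on the opposite strand and went from 161 counts over 8 chow libraries to 4 over 8 HFD libraries (log2 fold change −4.98, adjusted p = 0.000174, edgeR). The authors counted reads without strand, so reads of Cyp2f2 and of this antisense gene cannot be told apart. Next to Cyp2f2, Cyp2t4 had −0.98 and Cyp2b10 had 0.83, and neither was called. The nearest tested genes on both sides of Aspg and Hpcal4 were not called, while 2210406O10Rik beside Sorcs2 fell by 0.75 and Fam91a1 beside Fer1l6 rose by 0.21. The genes that overlap Aspg, Sorcs2, Fer1l6, Atp4b and Ttc25 had 0 to 3 counts over the 8 chow libraries.

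The genes most like each of the 8 across animals were found by Pearson's r of deviations from the 4 group means over all 16 libraries, among 13132 genes with a mean of at least 1 CPM; these are descriptions, and all share depth and tissue make-up of the same libraries. Pth1r, the parathyroid hormone receptor, came first for Aspg (r = 0.92) and for Atp4b (r = 0.94). Adprhl1 was most like Pank1, which starts coenzyme A synthesis (r = 0.90), and Ucp1 (r = 0.88). The genes most like Ttc25 included Hadha of fatty acid oxidation (r = 0.93) and Ndufa10 of the respiratory chain (r = 0.92). Sorcs2 was most like 3 immunoglobulin genes, Ighg3 (r = 0.92), Iglv2 (r = 0.91) and Igkv10-96 (r = 0.90), which stands beside the B cell marker values above. Cyp2f2 was most like the glutamate transporter gene Slc1a3 (r = 0.93). For Fer1l6 (Arid3a, r = 0.85) and Hpcal4 (Prdm9, r = 0.85) counts were few, and the likeness is weak. Counts were also few for Atp4b, with 123 over 8 chow and 1 over 8 HFD libraries, so its r rests almost wholly on the chow libraries. Adprhl1 had 1 to 10 counts in each HFD library, which limits its values too.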

How the data were processed

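RNA of 16 libraries was sequenced as paired 150-base reads after poly-A enrichment. Per the submitters' processing notes and the file headers, the authors aligned reads with STAR 2.7.3a to GRCm38 and deposited raw counts, read pairs per gene made with featureCounts 2.0.3 and an Ensembl annotation, without using strand. The authors' deposited DESeq2 tables hold shrunken log2 fold changes and p-values for KO against WT.

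From the counts, edgeR 4.0.16 (R 4.3.3; TMM factors, filterByExpr, robust quasi-likelihood fit) was fitted to 4 group means over all 16 libraries, so that all groups share the estimate of spread. Benjamini-Hochberg adjustment ran over the 16549 genes that passed the filter, and an adjusted p below 0.05 was called. CPM and FPKM used TMM-scaled library totals; log2 CPM used a prior count of 2. limma 3.58.1 and DESeq2 1.42.0 served as alternatives, beside other scaling, other filters, score covariates and leaving out libraries. The fit was tested on simulated data. No 2 libraries of a group were duplicates: the lowest chi-square per gene over 24 pairs was 9.82. The labels do not say how animals relate, so p-values measure the spread between these animals.

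The members and the 24 gene lists were chosen with earlier results of these data known. Named were the members and Kmo; of each family up to 4 tested genes, called ones first by adjusted p, then the most abundant; the 3 genes most like each member by correlation; overlapping and nearest tested genes; and, of each marker list, genes at 0 and the most abundant. Other marker genes named (Atp4a, Foxj1, Scgb1a1, Ucp1, Nefl, Snap25) were chosen after their values were seen. Of the genes this rule names, 2 are not reported here. Each 250-base promoter window came from RefSeq.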

Additional observations from a re-analysis of the deposited data

Results flagged for a closer look

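Libraries far from the other 3 of their group were looked for in each of the 31 groups of 4 in which a gene had a count, by the gap to the nearest library as a share of the range and Dixon's 95% limit. That limit is for normal values, where chance gives about 1 in 20 such groups; levels at low counts are skewed, so the 5 of 31 found here are values only. Aspg in WT chow replicate 4 stood at 60.0 CPM (940 counts), and Adprhl1 in the same library stood at 6.06 CPM (95 counts). Cyp2f2 in WT HFD replicate 4 stood at 15.7 CPM (250 counts), above the other 3 WT HFD libraries. In KO HFD replicate 1, Sorcs2 stood at 2.62 CPM (37 counts) and Atp4b at 0.0708 CPM, which is a single count beside 3 libraries at 0 and so passes by construction. WT HFD replicate 4 and KO HFD replicate 1 each came from a single lane, and these lanes differ. Any part of the lane was not tested.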

How the results depend on the processing

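All 8 genes kept a lower level on HFD than on chow in every setting that gave a value, with log2 fold changes from −7.06 to −0.89 in WT, −7.03 to −1.68 in KO and −7.03 to −1.44 over both genotypes. The thermogenic score as a covariate left 1 of 8 calls in WT, 0 in KO and 1 over both genotypes; this score itself differs between diets, and the calls over all genes fell with it, to 120, 3 and 131. Its fold changes were not all smaller: Cyp2f2 had −4.02 in WT and −3.98 in KO. Without libraries of a single lane, 2 genes were called in WT, where 225 genes in all were called from fewer libraries. Leaving out each library in turn gave 4 to 8 calls in WT (4 without WT HFD replicate 3), 7 to 8 in KO and 8 to 8 over both genotypes. Calls over all genes in these fits ran from 689 to 2400 in WT, 745 to 2714 in KO and 4505 to 6041 over both genotypes. The 689 also came without WT HFD replicate 3. limma-voom and the T and B cell covariate each gave 5 calls in WT. They called 2531 and 1929 genes there in all, against 1957 in the main fit. Genotype and interaction calls were 0 of the 8 genes in every setting, with at most 1 gene called in all. Their uncalled values changed sign in 26 of 223 fits on chow, 13 of 218 on HFD, 35 of 215 over both diets and 13 of 215 for the interaction; the cause was not tested. Atp4b and others at low counts gave no value in some stricter settings.

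Whether replicate numbers pair animals is not known from the labels. Of 24 same-numbered pairs of libraries, 9 had a correlation of deviations above 0.1 (range −0.69 to 0.55). Differently numbered pairs were not set beside them, so these values cannot decide it. With the replicate number as a block, 5 of the 8 genes were called in WT, 8 in KO, 8 over both genotypes and 0 between genotypes. Over all genes this fit called 1050 in WT, 1126 in KO and 4646 over both genotypes. Between genotypes it called 1 gene on each diet and 1 over both diets. Depth limits Atp4b, Fer1l6, Hpcal4 and Adprhl1 on HFD, which had 10 counts or fewer in each library.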
